A study of Mus musculus with 7 samples.

Results

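The genes described here are 10 members of the inhibitory and activating paired receptor systems of myeloid cells, out of 28666 genes in the table. They are Sirpa, Siglec1, Siglece, Pirb, Lilrb4a, Pilra, Cd300a, Cd300lf, Trem2 and Tyrobp, taken by name, and all 10 passed the filter on low counts that left 17461 tested genes. RNA was sequenced from mouse bone marrow-derived dendritic cells sorted as immature (3 libraries) or mature (4 libraries). The marrow donors were female C57BL/6 mice of 6 to 8 weeks, and the cells were grown with GM-CSF at 20 ng/mL and IL-4 at 10 ng/mL until day 7 to 8. They shared a Transwell system with MC38 colon carcinoma cells. The study text places sorting after 24 h of the glutamine antagonist DON, whereas a legend names DMSO or DON at 5 µM, so the treatment of a single library is not known here. The markers used for sorting are not given in the sources used here. Total counts lay between 57359581 and 67973086 in the immature and between 54846746 and 62285010 in the mature libraries.

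Paired receptors are families in which closely related proteins carry opposite signals. Inhibitory members have tyrosine motifs in the cytoplasmic tail that recruit phosphatases such as SHP-1, whereas activating members have short tails and borrow an adaptor with an activation motif, such as the product of Tyrobp (DAP12) or Fcer1g (the Fc receptor gamma chain). On dendritic cells and macrophages these receptors read sialic acids, lipids, MHC class I and the CD47 protein, and set thresholds for phagocytosis and cytokine release. The name of the group does not cover each gene equally, because Siglec1 (sialoadhesin) is a sialic acid-binding adhesion receptor without a classical inhibitory motif.

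The markers of maturation went with the labels. All 8 maturation markers were higher in mature cells past the criteria (a log2 fold change of at least 1 in size and an edgeR adjusted p under 0.05). Over all tested genes 13.2% were higher. The summed level of the 8 markers was 497, 517 and 508 FPKM (fragments per kilobase of transcript, scaled to sequencing depth) in the immature libraries. In the mature libraries the sum was 5206, 5449, 5923 and 5529 FPKM, with Ccl22 the most abundant gene. The study's flow analyses of mouse tissues define mature dendritic cells by CD80 and CD86, whose genes are in this list. Had the sort used these proteins, the rise of Cd80 and Cd86 may have been fixed by it. Of 9 dendritic cell markers, 4 were higher past the criteria (Flt3, Zbtb46, Irf8 and Batf3, 44.4%, against 13.2% of all tested genes). Past the same criteria 0 were lower, against 9.95%. The log2 fold changes of Irf4, H2-Aa, Cd74 and H2-Ab1 were 0.99, 0.53, 0.41 and 0.06, short of the fold criterion. Itgax went the other way, at -0.41 (edgeR adjusted p = 0.0124), with every mature library below every immature library.

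Mature replicate 3 stood apart from the other mature libraries. The deposited FPKM summed to 381707 in it and to between 327714 and 337706 in the other 6 libraries. The median chi-square between its counts and those of another mature library was 17.7 to 25.6, against 4.26 to 5.27 among the other mature libraries. A list of 7 cardiac muscle genes also set mature replicate 1 apart, with a summed level of 1.12 FPKM there and of 241, 251 and 238 FPKM in mature replicates 2, 3 and 4. That list summed to at most 0.54 FPKM in the immature libraries, and Mb was its most abundant gene. Without mature replicates 1 and 3 together, an alternative chosen after the data were seen, 9 of the 10 receptor genes were lower past the criteria, as with all libraries. That alternative keeps libraries with the cardiac muscle signal. With mature replicate 1 as the only mature library, which lacks that signal and is assumed to vary like the immature libraries, 9 of the 10 genes were again lower past the criteria, and the log2 fold change was -3.08 for Pilra and -1.78 for Siglece.

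Of the 10 genes, 9 were lower in mature cells past the criteria, and 0 were higher. Over all tested genes, 9.95% were lower and 13.2% were higher by the same criteria. No member was higher at an unadjusted edgeR p under 0.05 (0 of 10), and DESeq2 and limma on log2(FPKM + 1) each called 0 higher. In all 10 genes every mature library lay below every immature library, which held for 26.7% of tested genes. The median log2 fold change was -1.53 over the 10 genes and 0.05 over all tested genes. In bulk RNA, fewer cells of a type and less RNA per cell cannot be told apart.

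**Figure D1:**
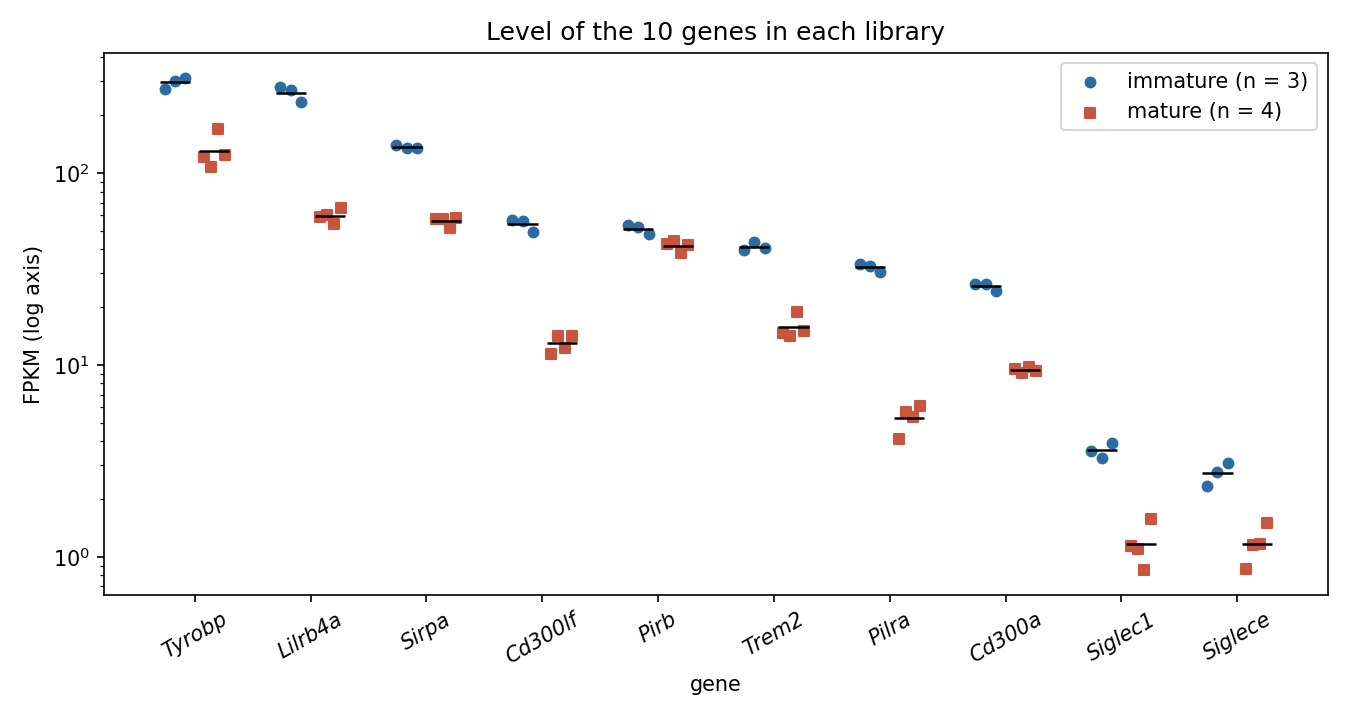
Level of each of the 10 genes in FPKM (log axis) in the 3 immature libraries (circles) and the 4 mature libraries (squares), with short lines at group means. Every mature library lies below every immature library for each gene, and the groups lie closest together for Pirb (means 51.3 and 41.8 FPKM).

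Lilrb4a, on chromosome 10 (51490956-51496611, plus strand), encodes an immunoglobulin-like inhibitory receptor of myeloid cells. Its level was 279, 272 and 235 FPKM in the immature libraries and 59.2, 60.1, 53.9 and 65.3 FPKM in the mature libraries. All mature libraries were far below the immature ones, and mature replicate 4 was the highest of them. The gene fell by 2.24 on the log2 scale (SE 0.09, edgeR adjusted p = 4.32e-07), a 4.73-fold lower level. A transcript model named Gm49339 lies over Lilrb4a on the same strand and held up to 5577 counts in a library, so reads may have been divided between them.

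Pilra, on chromosome 5 (137821952-137836268, minus strand), encodes an inhibitory receptor that binds sialylated O-glycosylated proteins. It was measured at 33.4, 32.7 and 30.5 FPKM in immature cells and at 4.09, 5.69, 5.35 and 6.12 FPKM in mature cells. Mature replicate 1 was the lowest library, and the groups were far apart. This was the largest fall among the 10 genes, with a log2 fold change of -2.70 (SE 0.14, edgeR adjusted p = 1.28e-06). The gene stood at the percentile 92.3 of FPKM among tested genes in immature cells and at 63.7 in mature cells.

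Cd300lf and Cd300a lie on chromosome 11 and encode inhibitory receptors for membrane lipids. Cd300lf (115116214-115133992, minus strand) was at 56.9, 56.5 and 49.2 FPKM in the immature libraries and at 11.4, 14.2, 12.2 and 14.2 FPKM in the mature libraries. Cd300a (114890041-114904654, plus strand) was at 26.5, 26.2 and 24.3 FPKM and then at 9.46, 9.02, 9.70 and 9.24 FPKM. For both genes the spread within a group was small beside the gap between groups. The log2 fold change was -2.16 for Cd300lf (SE 0.10, edgeR adjusted p = 7.04e-07). For Cd300a it was -1.56 (SE 0.08, edgeR adjusted p = 1.51e-06).

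Sirpa, on chromosome 2 (129592835-129632228, plus strand), encodes the receptor for CD47, the signal that restrains phagocytosis. Its level was 139, 134 and 135 FPKM in immature cells and 57.8, 57.2, 51.6 and 58.6 FPKM in mature cells. The libraries of each group differed little. It fell by 1.38 on the log2 scale (SE 0.07, edgeR adjusted p = 1.15e-06). Even in mature cells Sirpa stood at the percentile 95.5 of FPKM among tested genes.

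Both sialic acid-binding lectins were expressed at far lower levels. Siglec1, on chromosome 2 (131069220-131086765, minus strand), was at 3.57, 3.25 and 3.93 FPKM in immature cells and at 1.14, 1.10, 0.85 and 1.57 FPKM in mature cells. Siglece, on chromosome 7 (43651070-43660161, minus strand), which encodes an inhibitory lectin, was at 2.35, 2.76 and 3.09 FPKM and then at 0.86, 1.15, 1.16 and 1.5 FPKM. Mature replicate 4 was the highest mature library for both, and still below each immature library. The log2 fold change was -1.73 for Siglec1 (SE 0.18, edgeR adjusted p = 8.02e-05). For Siglece it was -1.33 (SE 0.23, edgeR adjusted p = 0.00137), and on the log2(FPKM + 1) scale, which understates the change of low genes, limma gave -0.79, short of the fold criterion.

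Pirb was the exception. The gene (chromosome 7, 3711409-3720391, minus strand) encodes an inhibitory receptor for MHC class I. Its level was 53.3, 52.5 and 48.0 FPKM in immature cells and 42.6, 44.3, 38.3 and 42.0 FPKM in mature cells. The groups did not overlap, although the gap was narrow. The log2 fold change of -0.40 (SE 0.07, edgeR adjusted p = 0.00129) was past the criterion on p and short of the criterion on fold. By mean FPKM Pirb ranked 5 of the 10 genes in immature cells, where its libraries overlapped with those of Cd300lf, and 4 in mature cells.

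Tyrobp and Trem2 belong to the activating side. Tyrobp (chromosome 7, 30413760-30417582, plus strand) encodes the adaptor DAP12, and Trem2 (chromosome 17, 48346401-48354147, plus strand) encodes a lipid and lipoprotein receptor that signals through it. Tyrobp was at 275, 301 and 314 FPKM in immature cells and at 120, 108, 170 and 124 FPKM in mature cells. Trem2 was at 39.5, 43.6 and 40.4 FPKM and then at 14.6, 14.2, 18.9 and 15.0 FPKM. Mature replicate 3 was the highest mature library for both genes, without reaching the immature range. The log2 fold change was -1.28 for Tyrobp (SE 0.18, edgeR adjusted p = 0.000457). For Trem2 it was -1.49 (SE 0.14, edgeR adjusted p = 3.66e-05).

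Ordered by FPKM, Tyrobp and Lilrb4a led in immature cells, with means of 297 ± 19.6 and 262 ± 23.7 (SD, n = 3) and overlapping libraries. Sirpa followed at 136 ± 2.65 FPKM. In mature cells Tyrobp led alone at 131 ± 27.1 FPKM (SD, n = 4), while Lilrb4a (59.6 ± 4.68) and Sirpa (56.3 ± 3.20) overlapped. Trem2 and Cd300lf also overlapped in mature cells, as did Siglece and Siglec1 at the low end. Summed over the 10 genes the level was 909, 925 and 883 FPKM in the immature and 322, 315, 362 and 338 FPKM in the mature libraries.

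The relatives of these receptors were examined next. Of 18 other genes listed as inhibitory receptors, all tested, 11 were lower past the criteria (61.1%, against 9.95% of all tested genes). The list was drawn up by name. Whether each product carries an inhibitory motif was not examined, and this includes Lilr4b, the most abundant gene of the list. Another 4 were higher (22.2%, against 13.2%), and the median log2 fold change was -2.34. Clec4a2, an inhibitory C-type lectin, was at 64.0, 64.4 and 62.6 FPKM in immature cells and at 8.48, 6.02, 9.38 and 8.28 FPKM in mature cells. It fell by 3.08 on the log2 scale (SE 0.17, edgeR adjusted p = 1.59e-06). Cd33, a sialic acid-binding lectin whose mouse form lacks the classical inhibitory motif although it stands in this list, was at 31.0, 30.5 and 28.5 FPKM in immature cells and at 3.73, 4.24, 3.34 and 4.97 FPKM in mature cells (log2 fold change -2.99, SE 0.12, edgeR adjusted p = 4.94e-07). Clec4a4 was near 0 throughout, at no more than 0.64 FPKM. Its call was lost without any 1 of the 3 immature libraries, for example without immature replicate 3 (edgeR adjusted p = 0.0884). It was also lost with the replicate block (edgeR adjusted p = 0.0787) and with no filter on low counts (edgeR adjusted p = 0.0646). The log2 fold change of Clec4a4 was -3.32 with all libraries and between -3.44 and -3.21 in the fits that lost the call. For Clec4a4 it ran from -4.23 to -2.91 when single libraries were left out, and from -8.00 to -2.91 over all its alternatives. Its adjusted p ranged from 0.00462 to 0.0884 over the alternatives, edgeR and DESeq2 included.

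The 4 inhibitory receptors that were higher were Siglecg, Cd72, Pdcd1 and Btla, best known from lymphocytes. Siglecg and Cd72 are outside the naming rule and were chosen after their values were seen. Cd72 was at 1.42, 1.40 and 1.47 FPKM in immature cells and at 6.27, 7.34, 8.52 and 6.61 FPKM in mature cells. Pdcd1, which encodes PD-1, reached 0.83 FPKM at most, and Btla 0.19 FPKM. Btla lost its call with mature replicate 1 as the only mature library (edgeR adjusted p = 0.0863, with a range of 0.000106 to 0.0863 over its alternatives), and its log2 fold change ran from 3.72 to 7.94 when single libraries were left out. The 4 B cell markers moved with these receptors, with a sum of 0.18, 0.11 and 0.05 FPKM in immature cells. In mature cells the sum was 0.36, 0.6, 0.6 and 0.47 FPKM, without overlap. Siglecg was at 3.14 FPKM or more and Cd72 at 1.40 FPKM or more in each library. Levels of different genes do not give the share of a cell type. Of the B cell markers, 2 were tested and 0 passed the criteria, and their part in the higher receptor levels was not tested. The 4 T cell markers summed to at most 0.8 FPKM in a library.

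Of 28 activating receptors and adaptors 22 were tested, of which 16 were lower (72.7%, against 9.95% of all tested genes). Only 1 was higher (4.55%, against 13.2%), Treml4, which was short of the fold criterion with limma on log2(FPKM + 1), at 0.69. The median log2 fold change was -2.13. Sirpb1c, an activating relative of Sirpa, was at 18.8, 22.7 and 21.3 FPKM in immature cells and at 2.93, 2.75, 2.80 and 2.95 FPKM in mature cells. It fell by 2.98 on the log2 scale (SE 0.10, edgeR adjusted p = 2.50e-07). Sirpb1a and Sirpb1b changed by -3.11 and -3.18, Trem1, an amplifier of inflammation, by -2.80, and Fcgr1, the high-affinity IgG receptor, by -2.74. Hcst, which encodes the adaptor DAP10, was at 3.05, 2.45 and 3.29 FPKM in immature and at 1.69, 1.08, 2.51 and 1.51 FPKM in mature cells. Its groups overlapped through mature replicate 3. The log2 fold change of Hcst was -0.87 (edgeR adjusted p = 0.0605) with all libraries and -1.14 without mature replicate 3 (edgeR adjusted p = 0.0061), and over all alternatives its adjusted p from edgeR, DESeq2 or limma ranged from 0.0061 to 0.18.

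**Figure D2:**
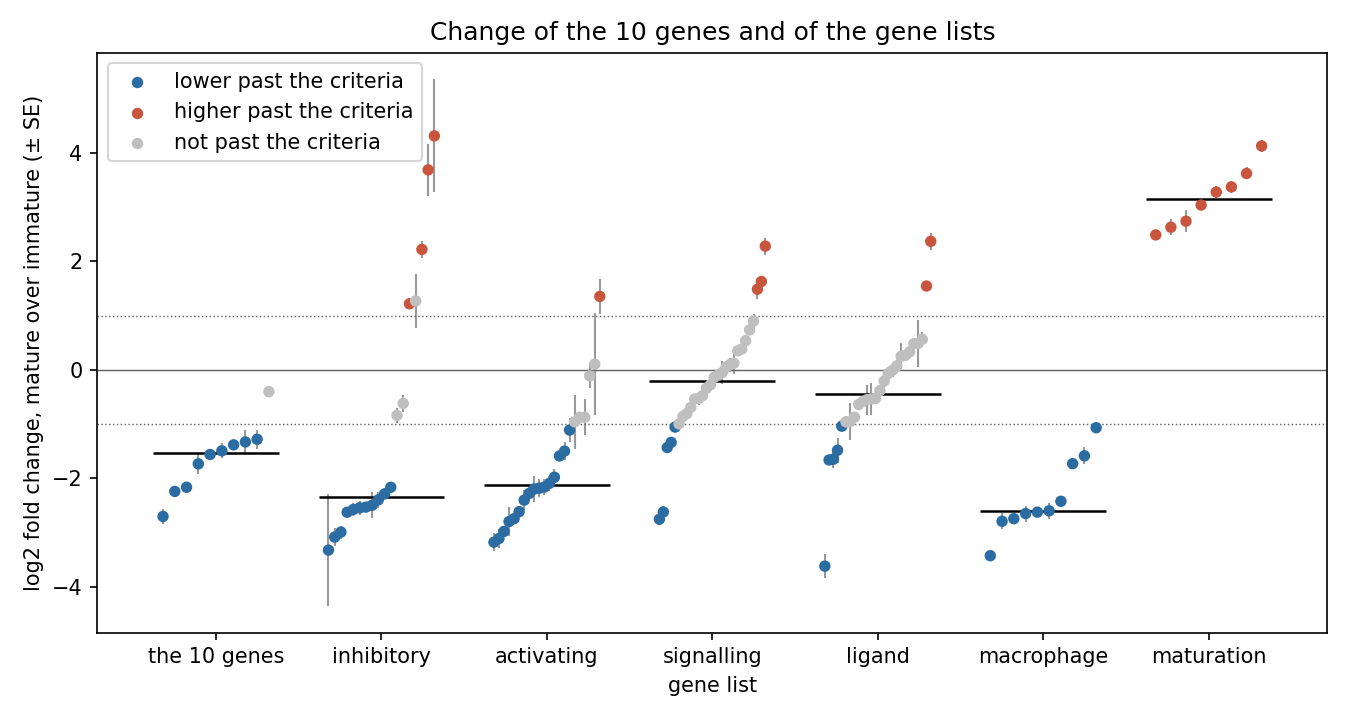
Log2 fold change of mature over immature cells with its SE for the 10 genes and for the tested genes of 6 lists, with dotted lines at the fold criterion and black lines at list medians. The medians are -1.53 for the 10 genes, -2.34 for the inhibitory list, -2.13 for the activating list and -0.21 for the signalling genes.

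Within families, the level of a gene over its counterpart did not move in 1 direction. These 9 ratios were chosen after the values were seen and are given without a test. Sirpa over the sum of Sirpb1a, Sirpb1b and Sirpb1c was 3.85, 3.36 and 3.43 in immature cells and 11.2, 12.6, 10.7 and 10.9 in mature cells. Cd300a over Cd300lb was 0.922, 0.987 and 0.900 and then 1.78, 1.96, 2.04 and 2.01. In both pairs all mature libraries had the higher ratio, on the side of the inhibitory gene. Pirb over Pira2 was also higher, between 4.23 and 5.08 in mature against 3.16 to 3.51 in immature cells. Pilra over the sum of Pilrb1 and Pilrb2 went the other way, from 2.45 to 2.64 in immature cells to 1.49 to 1.76 in mature cells. Lilrb4a over its neighbour Lilr4b overlapped between groups, at 1.499 to 1.71 and 1.56 to 1.72. Tyrobp over Trem2 overlapped too, at 6.90 to 7.76 and 7.62 to 8.995. Cd300lf over Cd300ld overlapped as well, at 6.21 to 8.30 and 6.15 to 8.81. Trem2 over Trem1 was 4.68 to 7.03 in immature and 10.01 to 22.8 in mature cells, and Tyrobp over Fcer1g was 0.893 to 0.978 and 1.001 to 1.17, both without overlap. Members of these families are similar in sequence, and reads that match several of them make each value uncertain.

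**Figure D3:**
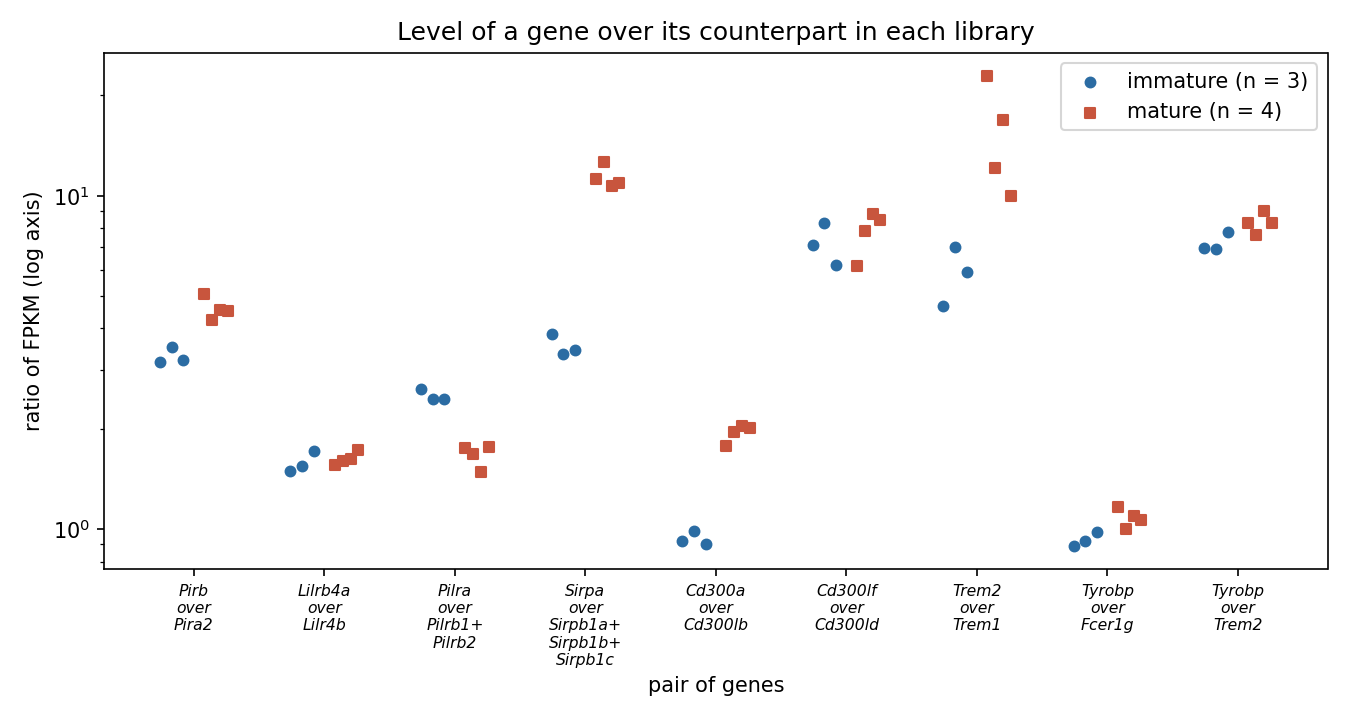
Ratio of FPKM between a gene and its counterpart (log axis) in the 3 immature libraries (circles) and the 4 mature libraries (squares). The ratio of Sirpa to its activating relatives is 3.36 to 3.85 in immature and 10.7 to 12.6 in mature cells, whereas that of Pilra is lower in mature cells.

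Most genes that relay the signal were not past the criteria (20 of 28), and those past them went both ways. Of 28 signalling genes, all tested, 5 were lower (17.9%, against 9.95% of all tested genes) and 3 higher (10.7%, against 13.2%), with a median log2 fold change of -0.21. Fgr, a Src family kinase of myeloid cells, was at 15.0, 14.6 and 14.9 FPKM in immature cells and at 2.36, 2.26, 2.09 and 2.77 FPKM in mature cells (log2 fold change -2.75, SE 0.10, edgeR adjusted p = 4.07e-07). Fyn, of the same kinase family, went from 14.7, 12.96 and 15.3 to 49.6, 51.1, 42.7 and 47.9 FPKM (log2 fold change 1.63, SE 0.09, edgeR adjusted p = 2.18e-06). The groups did not overlap for either kinase, and they moved in opposite directions. The adaptor gene Lat2 changed by -2.62, the ubiquitin ligase gene Cblb by 2.28 and Malt1, which acts towards NF-kappaB, by 1.49. Ptpn6, which encodes the phosphatase SHP-1, had a log2 fold change of -0.69 (SE 0.09, edgeR adjusted p = 0.000273), and Syk, the kinase that binds activation motifs, of 0.35 (SE 0.09, edgeR adjusted p = 0.0143). For Syk the adjusted p from edgeR, DESeq2 or limma ranged from 3.45e-05 to 0.079 over 16 alternatives and was under 0.05 in 13 of them, but not with the replicate block or without immature replicate 1 or 2. Both Ptpn6 and Syk were short of the fold criterion.

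Among 26 tested ligands and ligand-processing genes 5 were lower (19.2%, against 9.95% of all tested genes) and 2 higher (7.69%, against 13.2%), with a median log2 fold change of -0.45. Cd47, the ligand of the Sirpa product, was at 43.2, 43.7 and 44.0 FPKM in immature cells and at 63.6, 65.0, 68.9 and 64.3 FPKM in mature cells. The log2 fold change of Cd47 was 0.48 (SE 0.09, edgeR adjusted p = 0.00199), short of the fold criterion, and its groups did not overlap. Clu, which encodes a lipoprotein bound by TREM2, changed by 2.37 (SE 0.16, edgeR adjusted p = 6.16e-06). Apoe, which encodes another lipoprotein bound by TREM2 and was added after its value was seen, changed by -1.48 (SE 0.23, edgeR adjusted p = 0.000841). Adam10, which encodes a protease that sheds TREM2, changed by -1.65 (SE 0.17, edgeR adjusted p = 6.13e-05). The matrix gene Fn1 changed by -3.62, and the sialyltransferase genes St3gal5 and St3gal3 by -1.66 and 1.54.

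Markers of macrophages moved with the receptors. All 10 macrophage markers were lower past the criteria, against 9.95% of all tested genes. Their median log2 fold change was -2.61, and Cd68 was the most abundant gene. Their summed level was 1003, 1012 and 978 FPKM in the immature libraries and 190, 191, 210 and 195 FPKM in the mature libraries. Fcgr1 stands in this list and among the activating receptors. GM-CSF cultures of marrow are known to hold macrophage-like cells beside dendritic cells. The part of these markers in the fall of the receptor genes was not tested.

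Markers of other lineages differed in level, and the cardiac muscle genes, at 238 to 251 FPKM in mature replicates 2, 3 and 4, summed above the macrophage markers there. By the criteria 1 neutrophil marker was lower (S100a8), while 2 erythroid markers (Hbb-bs and Hba-a1), 1 epithelial marker (Epcam) and all 7 cardiac muscle genes were higher. The libraries of the groups overlapped for S100a8, Hba-a1, Mb and Myh6, Hbb-bs was close to the criterion (edgeR adjusted p = 0.0486), and these marker calls were not recomputed under the alternatives. The neutrophil markers summed to at most 4.18 FPKM, the NK cell markers to at most 3.54 FPKM, the erythroid markers to at most 2.2 FPKM and those of mast cells and basophils to at most 1.2 FPKM. The plasmacytoid markers summed to 59.4 to 70.8 FPKM in immature and 106 to 189 FPKM in mature cells, nearly all from Bst2, which other cells also express. The epithelial markers summed to 12.9 to 18.3 FPKM, mainly Cdh1.

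The genes most like Pilra, the member with the largest fall, were Mtus1, Clec7a and Atp6v1b2, each with a Pearson r of at least 0.999 for log2 CPM over the 7 libraries. The libraries form 2 groups, so this likeness mostly describes the difference between them. Clec7a encodes the beta-glucan receptor Dectin-1, and its log2 fold change was -2.11. No member rose, so no gene was sought for the other direction.

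The promoters of the 10 genes were read. RefSeq promoters (GRCm38.p6, 250 bases before to 50 after the start) were matched for 6 of the 10 genes, namely Pilra, Siglece, Cd300a, Cd300lf and Trem2, which fell past the criteria, and Pirb, which did not. On both strands GAGGAA, the core bound by the myeloid factor PU.1, was present in all 6, Pirb included with 3 matches, against 28.3% of all 32851 promoters. The AP-1 motif TGANTCA was found in Trem2 alone (7.81% of all promoters), GAAANNGAA, the core of interferon response elements, in Pilra and Cd300lf (8.56%), and the kappa B consensus in Cd300a (8.46%). A match describes letters and not binding. The 250 bases before the start are shown for the gene with the largest fall (Pilra), the one with the smallest (Pirb) and an activating receptor (Trem2), with matches to any of the 4 motifs in capitals. They lie at chr5:137836279-137836528 on the minus strand, chr7:3720383-3720632 on the minus strand and chr17:48346151-48346400 on the plus strand.
Pilra: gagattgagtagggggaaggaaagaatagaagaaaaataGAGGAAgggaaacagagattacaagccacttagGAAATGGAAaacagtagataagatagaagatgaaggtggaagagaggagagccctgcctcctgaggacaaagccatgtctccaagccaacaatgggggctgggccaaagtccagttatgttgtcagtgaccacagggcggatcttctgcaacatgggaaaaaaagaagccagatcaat
Pirb: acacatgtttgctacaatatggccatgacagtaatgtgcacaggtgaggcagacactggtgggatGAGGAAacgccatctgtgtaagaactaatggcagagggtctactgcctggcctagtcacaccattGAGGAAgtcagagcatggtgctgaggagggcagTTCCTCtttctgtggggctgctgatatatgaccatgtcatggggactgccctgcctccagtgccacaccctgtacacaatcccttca
Trem2: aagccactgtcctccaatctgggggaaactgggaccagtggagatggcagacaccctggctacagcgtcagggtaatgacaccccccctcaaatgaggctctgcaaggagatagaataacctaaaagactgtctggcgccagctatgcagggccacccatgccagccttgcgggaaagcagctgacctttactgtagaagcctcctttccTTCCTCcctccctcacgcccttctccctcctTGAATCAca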

How the data were processed

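The authors deposited 1 table with whole-number counts and with FPKM for each of the 7 libraries, made from poly(A)-selected RNA with a library kit that marks strand. The submitters' processing notes name cutadapt 1.9, HISAT2 2.2.1, StringTie 2.1.6, DESeq2 and edgeR without their roles, and give the build as mm9, whereas the coordinates match GRCm38 annotation and are given as such. The strand setting of the counting is not given in the sources used here.

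Counts were tested with edgeR 4.0.16 in R 4.3.3 (filterByExpr, TMM, quasi-likelihood test, Benjamini-Hochberg adjustment over 17461 genes), and the code was tested on simulated data. CPM came from the counts, levels are the deposited FPKM, and fold changes come from the counts. DESeq2 1.42.0 and limma 3.58.1 (on log2(FPKM + 1) and log2(FPKM + 0.1)) served as alternatives, beside other scaling and filters, a replicate block and leaving out libraries. The text names all 10 genes, up to 5 genes per list with the largest changes past the criteria and no overlap between groups, fixed counterparts of the members, and the 3 genes most like the largest fall. The further genes named, among them Siglecg, Cd72, Treml4, Apoe, the other ratio counterparts and the called markers of other lineages, fall outside that rule and were picked with their values in view. The members and lists were chosen with earlier results of these data known. Lilrb4b is called Lilr4b in the table. Pira1, Pira6, Pira11, Siglech, Siglec15, Cd99, Elane and Ncr1, and the proteins, were not analysed here. The study's methods speak in general of independent biological experiments, but the labels do not tie the libraries to separate cultures, so p-values measure the spread between these libraries, which may in part be technical. Replicates differed by more than sampling noise in every pair (median chi-square of at least 3.83, against 0.455).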

Additional observations from a re-analysis of the deposited data

Results flagged for a closer look

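Among 57 quantities checked in the mature group, 5 had a single library distant from the rest, and chance alone marks about 1 in 20. The gap to the nearest library, as a share of the whole range, was 0.951 for Lilrb4a, where mature replicate 4 was highest at 358 CPM. It was 0.912 for Malt1, 0.859 for Clu, 0.885 for Syk and 0.877 for Cd47, and in these 4 genes mature replicate 3 was the distant library, at 296, 126, 580 and 490 CPM. Lilrb4a in mature replicate 4 remained far below the immature libraries.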

How the results depend on the processing

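Over 160 values of the 10 genes under 16 alternatives, 159 kept their direction and their side of the criteria, and 1, Siglece with limma on log2(FPKM + 1), kept its direction short of the fold criterion. Of 599 values of 38 other named genes, which leave out the lineage markers, 589 kept both, 7 lost the call (Clec4a4, Btla and Treml4), 3 gained it (Hcst and Pira2) and 0 changed direction. The number of all genes past the criteria was 4037, and it was 2665 with a filter of FPKM of at least 1 in 3 libraries, 1768 with limma on log2(FPKM + 1), 2561 with limma on log2(FPKM + 0.1) and 8053 without the fold criterion, all of which change the genes tested, the scale or the criterion. Without the fold criterion 22 signalling genes in place of 8 and 16 ligand genes in place of 7 passed. Deviations of same-numbered libraries were nearly uncorrelated (0.03, -0.00114 and 0.01). With only 3 such pairs, these values cannot tell whether same-numbered libraries came from a shared culture. With the replicate block, which leaves mature replicate 4 without a partner, 9 of the 10 genes were lower and 3616 genes were past the criteria in all. Of the 3 immature libraries, 2 correlated best with the mature library of their own number. Clec4a4, Btla and Pdcd1 had few counts, which limits their fold changes.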
